A study of Mus musculus with 12 samples.

Results

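Spliceosome components and SR proteins were followed as 50 of the 23235 genes in the deposited expression table. They were taken by a rule on symbols, set with earlier results of these data known. The rule takes names beginning with Snrp, with Sf3a, Sf3b, Srsf or Prpf and a number, and Lsm2 to Lsm8 as far as the table names them. Polysome-bound RNA, the RNA held by groups of translating ribosomes, had been sequenced from C57BL/6 mouse oocytes at postnatal day 21. Wild-type (WT) and Cnot6l-/- oocytes were each taken at the germinal vesicle stage (GV), at metaphase I (MI) and at metaphase II (MII), with 2 libraries in each of 6 groups. The hormone PMSG was given 48 h before GV oocytes were collected, and culture lasted 8 h to reach MI and 16 h to reach MII. The labels call the mutant Cnot6l-/- without saying which part of the gene was removed, and they do not say whether the libraries of a group came from separate mice or pools, so every p-value measures the spread between libraries, which may be technical.

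The spliceosome removes introns from pre-mRNA. Its U1, U2, U4 and U5 particles (snRNPs) each carry a ring of the Sm proteins B, D1, D2, D3, E, F and G around their RNA, and U6 carries a ring of the related Lsm proteins. U1 recognises the 5′ splice site, U2 the branch point, and the U4/U6.U5 tri-snRNP brings the catalytic core, while SR proteins bind exons and help to place these particles. The growing oocyte stores much of its mRNA, transcription is silent during meiotic maturation, and stored mRNAs are recruited to or leave ribosomes mainly through their poly(A) tails. Tails are lengthened through cytoplasmic polyadenylation elements near the 3′ end and shortened by the CCR4-NOT deadenylase complex, of which CNOT6L is a catalytic subunit.

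Levels are FPKM, fragment counts that the authors divided by transcript length and library total before depositing them, so they can be compared between genes. Differences are log2 differences of FPKM + 1 from limma, a linear model fitted to all genes with a mean of at least 1 FPKM (11667 genes), and are given with their standard error (SE). A gene is called at a Benjamini-Hochberg adjusted p under 0.05 over those genes. Of the 50 members, 48 passed that filter. Prpf19, a ubiquitin ligase of the activated spliceosome, lay between 0 and 1.39 FPKM, and Srsf12 was listed at 0 in 11 of 12 libraries. Members were abundant as a set: 25 had a mean of at least 100 FPKM, 20 lay between 10 and 100, and 3 between 1 and 10. The median member was at 109.0 FPKM at GV in WT, where the median tested gene was at 17.4 FPKM. Shares of all tested genes, given below as background, were not matched to the members in abundance.

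Total FPKM ran from 884142 to 1663871 per library, lowest in WT MII and highest in Cnot6l-/- MI, and with no external standard a change that all transcripts share cannot be told apart from a change of scale. Each comparison is therefore read beside the median of all tested genes and again after median scaling, in which each library is divided by the median, over abundant genes, of its ratio to the mean of all libraries on the log scale. Replicate libraries correlated at 0.8648 (WT MII) to 0.9495 (Cnot6l-/- MI) in log2 FPKM + 1. Cnot6l itself was at 47.9 to 68.5 FPKM in WT MI and MII and at 16.0 to 23.5 FPKM in the corresponding mutant groups. At GV its mutant libraries (6.28 and 21.6 FPKM) overlapped with the WT libraries (38.7 and 16.1 FPKM). All 10 oocyte markers were above 0 in every library. The 12 cumulus and granulosa cell markers summed to 284.6 to 308.2 FPKM at GV in WT, 110.1 to 130.3 in WT MI and 55.4 to 66.5 in WT MII, and to 147.9 to 205.9, 137.6 to 159.9 and 87.4 to 127.2 FPKM in the mutant at those stages. Of the 12 cumulus and granulosa markers, 8 were above 0 in both libraries in mutant GV and in mutant MI. The number was 6 in WT GV, WT MI and mutant MII, and 3 in WT MII. Foxl2 was at 0 in both libraries of every group. The oocyte markers summed to 19620 FPKM or more in each library, and the part of cumulus cells in the results was not tested. In such bulk libraries, fewer oocytes with a transcript on polysomes and less of it per oocyte cannot be told apart, nor can loss of an mRNA and its departure from polysomes.

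The 3′ ends of the members that changed in opposite directions are shown first, because tails are added there. Each line gives 30 bases of the 3′ untranslated region in the mm9 build, 5′ to 3′ on the transcript strand and ending with the polyadenylation signal AATAAA or ATTAAA, whose letters are in capitals. The first 2 transcripts rose on WT polysomes between MI and MII and the next 6 fell there.
Snrpe, chr1:135500477-135500506, minus strand: acttgcacattattattaggtgacAATAAA
Snrpg, chr6:86328853-86328882, plus strand: attttcatatggaactttttactaAATAAA
Snrpb, chr2:129997398-129997427, minus strand: ctgtggcctatgaagctggtttatAATAAA
Snrpd2, chr7:19738028-19738057, plus strand: cagaaccctgcccagtgggcgagaAATAAA
Snrpa, chr7:27972051-27972080, minus strand: tgcacctggcgctgttagattgtgATTAAA
Snrpc, chr17:27988862-27988891, plus strand: ttcacttatattgtgaaatgtgaaAATAAA
Prpf3, chr3:95634556-95634585, minus strand: ccctccatcctgtatgtgcatatgATTAAA
Prpf38a, chr4:108237494-108237523, minus strand: aaagatgtgatcctttcatttgtaATTAAA

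For 44 of the 48 tested members an annotated transcript of GENCODE mouse release 1 ended within 25 bases of the gene end in the deposited table. A cytoplasmic polyadenylation element, searched as TTTTAT or TTTTAAT on the transcript strand of the last 100 bases, was present in 8 of these 44 (18.2%) and in 19.8% of 9480 tested genes. The signal stood within the last 40 bases in 77.3% of the members and in 79.2% of the tested genes. The 8 members with the element were Snrpd2, Snrpa1, Sf3a1, Sf3b1, Lsm7, Prpf6, Prpf8 and Srsf4. Of these, Lsm7, Prpf6 and Srsf4 rose and Snrpd2 fell on WT polysomes between MI and MII. Over all 48 tested members 7 rose and 12 fell there, against 5.68% and 16.4% of all tested genes. In Snrpd2, Prpf6 and Prpf8 the element began after the start of the signal, and Sf3a1 and Srsf4 had no signal in the last 40 bases. In Lsm7 the element began 4 bases before the start of the signal and overlapped it. Other transcript ends in oocytes were not analysed here, and a match is a description of these letters only.

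The Sm proteins are assembled in fixed proportion, 1 of each per ring, yet their transcripts diverged on polysomes as WT oocytes matured. Snrpe, which encodes SmE, was at 773 and 809 FPKM at GV in WT, 1053 and 1066 in MI, and 1878 and 1823 in MII. Snrpg (SmG) was at 829.5 and 892 FPKM at GV in WT, 1367 and 1205 in MI, and 2447 and 2417 in MII. No library of one WT stage overlapped with another for these 2 transcripts, and Snrpg had the highest mean of all members in each WT group. Snrpd1 (SmD1) went from 447 and 444 FPKM in WT MI to 811 and 769 in MII.

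Snrpd2 and Snrpb took the opposite course. Snrpd2 (SmD2) was at 541 and 578 FPKM at GV in WT, 236 and 228 in MI, and 22.7 and 112 in MII. Snrpb (SmB) was at 297 and 296 FPKM at GV in WT, 141 and 146 in MI, and 39.2 and 103 in MII. Both MII libraries lay below both MI libraries for each gene, although the MII libraries differed from one another more than those of the earlier stages. Snrpd3 (SmD3) peaked at MI, with 347 and 427 FPKM in GV, 900.1 and 977 in MI, and 555 and 508 in MII. Snrpf (SmF) was at 130.3 to 225 FPKM over the WT libraries, the lowest of the 7 at GV but above Snrpb at MI and MII.

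**Figure D1:**
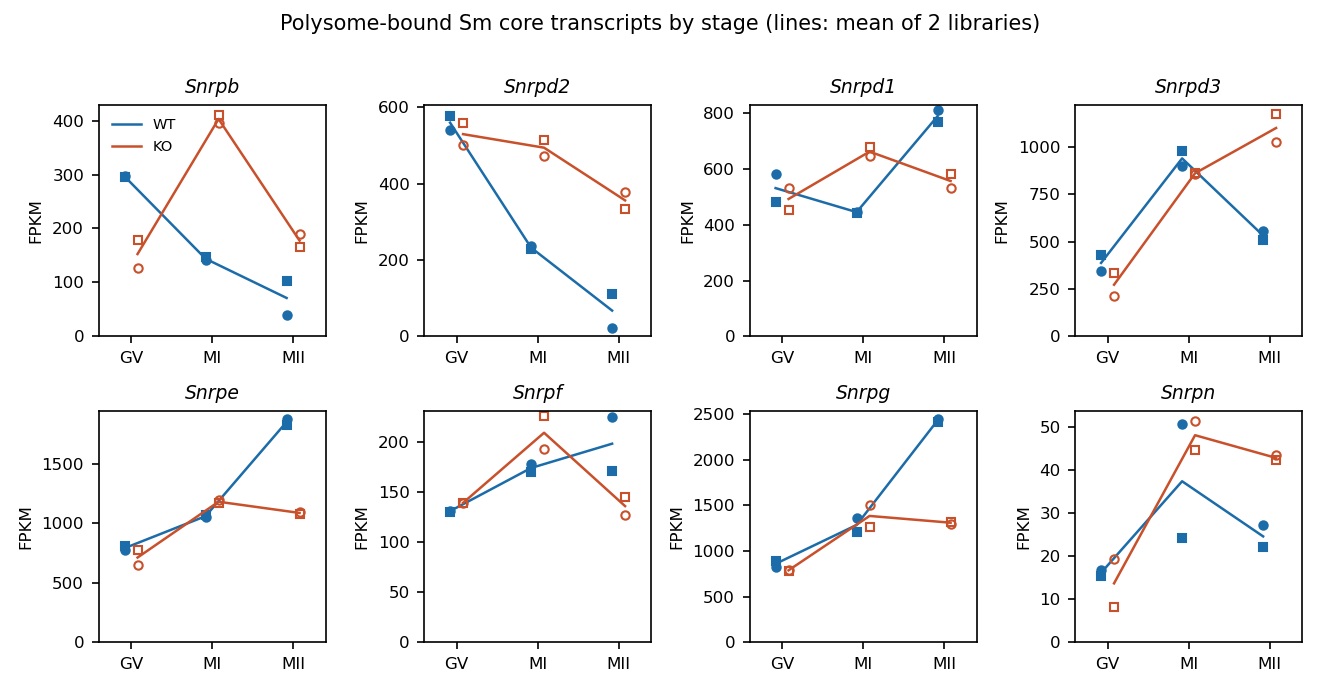
FPKM (vertical axis, linear) of the Sm core genes and of Snrpn at GV, MI and MII; circles are replicate 1 and squares replicate 2, closed for WT and open for Cnot6l-/- (KO), and lines join the means of 2 libraries. As deposited, Snrpe and Snrpg climb from MI to MII in WT (to 1878 and 2447 FPKM at most) but not in the mutant. After median scaling, both were called higher in mutant MII than in mutant MI. Snrpb and Snrpd2 fall in WT and are higher in the mutant than in WT at MII as deposited. In the mutant, Snrpb goes from 126 and 179 FPKM in GV to 396 and 410 in MI, and falls to 189 and 166 in MII. The Snrpb difference at MII was not called after median scaling.

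In limma, Snrpe rose from GV to MI by 0.42 ± 0.09 (SE; adjusted p = 0.00767) and from MI to MII by 0.80 ± 0.09 (adjusted p = 1.3e-04). Snrpg rose by 0.58 ± 0.10 (adjusted p = 0.00243) and then by 0.92 ± 0.10 (adjusted p = 9.8e-05). Snrpd3 rose by 1.28 ± 0.19 from GV to MI (adjusted p = 0.0012) and fell by 0.82 ± 0.19 from MI to MII (adjusted p = 0.012). Snrpd1 rose from MI to MII by 0.83 ± 0.13 (adjusted p = 0.0011). From MI to MII, Snrpd2 fell by 2.17 ± 0.52 (adjusted p = 0.0125) and Snrpb fell by 1.16 ± 0.36 (adjusted p = 0.0401). The Snrpd2 call was lost without WT MI replicate 1 (adjusted p = 0.0616) or WT MI replicate 2 (0.0571), the Snrpd3 fall without WT MI replicate 2 (0.0689) and the Snrpe rise to MI without WT GV replicate 1 (0.0575). The Snrpb fall did not pass in 11 of the 12 fits that left out 1 library, nor after median scaling.

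The share of each gene in the summed FPKM of the 7 Sm genes does not depend on the scale of a library. Snrpg made up 23.7% and 24.7% of that sum in the WT GV libraries and 40.9% in each WT MII library. Snrpd2 went from 15.5% and 16.0% to 0.38% and 1.89%, and Snrpb from 8.47% and 8.20% to 0.656% and 1.74%. In the Cnot6l-/- MII libraries Snrpg made up 28.0% and 27.6%, Snrpd2 8.13% and 6.96%, and Snrpd3 22.1% and 24.4%. The mutant MII libraries thus lay between the WT GV and WT MII libraries for Snrpg and Snrpd2.

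**Figure D2:**
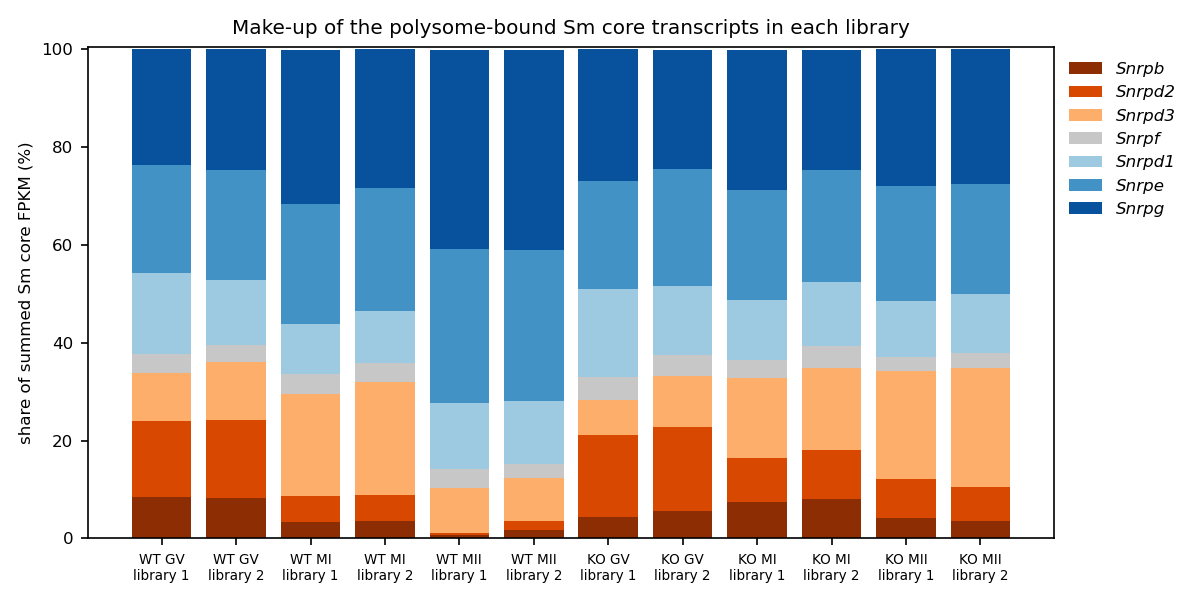
Share (%, stacked bars from 0 to 100) of each of 7 Sm genes in their summed FPKM, 1 bar per library. The Snrpg share widens to 40.9% in both WT MII libraries and the Snrpd2 share narrows to 0.38% and 1.89%, against 28.0% and 27.6% and 8.13% and 6.96% in the mutant MII libraries.

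The mutant differed from WT at MII in both directions within the ring. Snrpe was at 1092 and 1082 FPKM and Snrpg at 1299 and 1323 FPKM in Cnot6l-/- MII, below all WT MII libraries, with log2 differences of -0.77 ± 0.09 (adjusted p = 1.5e-04) and -0.89 ± 0.10 (adjusted p = 9.8e-05). Snrpd1, at 534 and 581 FPKM, was lower as well (-0.50 ± 0.13, adjusted p = 0.0134), a call lost without the Cnot6l-/- MII replicate 1 library (adjusted p = 0.0892). Snrpd2 was at 378 and 334 FPKM, higher than WT by 2.78 ± 0.52 (adjusted p = 0.00264). Snrpd3 was at 1026 and 1171 FPKM, higher by 1.05 ± 0.19 (adjusted p = 0.0026), and Snrpb at 189 and 166 FPKM, higher by 1.46 ± 0.36 (adjusted p = 0.0116). After median scaling the Snrpd3 difference was 0.44 and the Snrpb difference 0.86, neither of them called, and the Snrpb call was also lost without Cnot6l-/- MII replicate 1 (adjusted p = 0.072).

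The change from MI to MII itself differed between genotypes for Snrpe (-0.92 ± 0.13, adjusted p = 0.00211), Snrpg (-0.996 ± 0.139, adjusted p = 0.00223) and Snrpd1 (-1.07 ± 0.18, adjusted p = 0.00602), as the interaction term of the same limma fit. These 3 calls held under all 18 alternative settings. Snrpe went from 1192 and 1169.9 FPKM in Cnot6l-/- MI to 1092 and 1082 in MII, where WT went from 1053 and 1066 to 1878 and 1823. After median scaling, however, Snrpe and Snrpg were called higher in Cnot6l-/- MII than in Cnot6l-/- MI. For Snrpd3 the interaction had the opposite sign (1.17 ± 0.27, adjusted p = 0.0298), but 7 of the 12 fits without 1 library did not call it.

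Snrpn, a close relative of Snrpb that shares its locus on chromosome 7 with Snurf on the same strand, was at 8.12 to 51.5 FPKM over the 12 libraries. The deposited table could split fragments between these genes, and between a member and its processed copies elsewhere, so values of Snrpn and of the short Sm and Lsm transcripts carry that uncertainty. Its increase from GV to MI in Cnot6l-/- (1.85 ± 0.46, adjusted p = 0.0286) was not called in 5 of the 12 fits without 1 library, nor after median scaling (1.46, adjusted p = 0.116). Snrpf overlaps 4933408J17Rik and Ccdc38 on the opposite strand, and whether the counting used strand is not given in the sources used here.

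U1 carries 3 proteins of its own, called 70K, A and C, of which the rule takes A (Snrpa) and C (Snrpc). Snrpa was at 193 and 147 FPKM at GV in WT, 105 and 39.5 in MI, and 14.6 and 21.1 in MII. In Cnot6l-/- it was at 181 and 179 FPKM in GV, 135 and 138 in MI, and 85.0 and 90.7 in MII. Snrpc was at 286 and 329 FPKM at GV in WT, 105 and 142 in MI, and 47.1 and 2.15 in MII, against 387 in both GV libraries, 205 and 208 in MI, and 171 and 159 in MII of the mutant. Both transcripts were lowest in WT MII, and both mutant MII libraries lay above both WT MII libraries.

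Snrpa fell by 1.82 ± 0.39 from MI to MII in WT (adjusted p = 0.00734) and was higher in Cnot6l-/- MII by 2.26 ± 0.39 (adjusted p = 0.00176), the latter call made under all 18 alternatives. Snrpc fell by 3.32 ± 0.89 from MI to MII in WT (adjusted p = 0.0225) and was higher in Cnot6l-/- MII by 3.75 ± 0.89 (adjusted p = 0.0101). The wide error of Snrpc followed its WT MII libraries, and its calls were lost without a WT MI library (adjusted p of 0.0719 without replicate 1 and 0.105 without replicate 2) and, for the mutant difference, without a Cnot6l-/- MII library (0.0563 without replicate 1 and 0.0524 without replicate 2). Snrnp70, which encodes the 70K protein and lies outside the rule, was at 118 to 230.2 FPKM in WT and 121 to 280.1 FPKM in the mutant, with no call between WT stages. Its mutant libraries were higher at MI (1.05 ± 0.31, adjusted p = 0.0304), by 0.09 and not called after median scaling.

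Factors that join U1 in some settings were low. Prpf39 lay between 3.17 and 21.0 FPKM and Prpf40b between 0 and 15.5 FPKM, with no call in any comparison. Prpf39 overlaps Fkbp3 on the opposite strand.

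U2 carries the products of Snrpa1 and Snrpb2, which bind each other on the particle, and the SF3A and SF3B complexes, which hold the branch point. The transcripts of the 2 partners moved apart on WT polysomes. Snrpa1 was at 367 and 239 FPKM at GV in WT, 84.1 and 70.6 in MI, and 83.4 and 66.7 in MII. Snrpb2 was at 218 and 259 FPKM at GV in WT, 473 and 505 in MI, and 518 and 563 in MII. Between GV and MI Snrpa1 fell by 1.93 ± 0.27 (adjusted p = 7.5e-04) and Snrpb2 rose by 1.04 ± 0.15 (adjusted p = 8.9e-04), and both calls held under all 18 alternatives.

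In Cnot6l-/- oocytes Snrpa1 did not show that fall, with 207 and 274 FPKM in GV, 294 and 351 in MI, and 187 and 133 in MII. At MI it was higher than WT by 2.05 ± 0.27 (adjusted p = 6.8e-04), and its GV to MI change differed between genotypes by 2.36 ± 0.38 (adjusted p = 0.00332). After median scaling these values were 1.09 and 1.30, neither of them called. Snrpb2 was at 302 and 239.8 FPKM in mutant GV, 550.5 and 629 in MI, and 574 and 566 in MII, rising from GV to MI by 1.12 ± 0.15 (adjusted p = 6.4e-04), a rise not called on the TPM scale, in which FPKM are rescaled to the same total in each library (adjusted p = 0.073).

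Sf3b5, a small subunit of SF3B, had the highest mean of the U2 members over the 12 libraries, though it lay below Snrpb2 in mutant MII. It was at 844 and 797 FPKM at GV in WT, 485 and 631 in MI, and 611 and 787 in MII. In Cnot6l-/- it was at 909 and 874 FPKM in GV, 1009.7 and 879.7 in MI, and 417 and 523 in MII. Its MI to MII change differed between genotypes by -1.34 ± 0.24 (adjusted p = 0.00856), a call lost without Cnot6l-/- MI replicate 1 (adjusted p = 0.0511). Sf3a3, which binds near the branch point as part of SF3A, fell from 208 and 239 FPKM in WT MI to 119 and 65.1 in MII (-1.33 ± 0.25, adjusted p = 0.00359). It was at 413 and 493 FPKM in mutant MI and 254 and 295 in mutant MII, higher than WT at MII by 1.63 ± 0.25 (adjusted p = 8.8e-04).

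The other SF3 subunits were less abundant. Sf3b1, the large scaffold of SF3B, was at 55.2 to 116 FPKM in WT and 44.7 to 109.8 in the mutant, with 1 call, a rise from GV to MI in Cnot6l-/- (1.02 ± 0.26, adjusted p = 0.0307) that 6 of the 12 fits without 1 library missed. This rise was not called after median scaling (0.63, adjusted p = 0.223) or on the TPM scale (0.40, adjusted p = 0.452). Sf3b2 fell from 146 and 166 FPKM in WT GV to 60.6 and 84.3 in MI (-1.11 ± 0.25, adjusted p = 0.01), and the call was lost without WT GV replicate 2 (0.072), without WT MI replicate 1 (0.0635) and after median scaling. Sf3b3 was at 19.9 and 7.89 FPKM in WT MII and 30.7 and 52.2 in mutant MII, a difference of 1.59 ± 0.46 (adjusted p = 0.0251) that was lost without WT MII replicate 2 (0.127) or Cnot6l-/- MII replicate 2 (0.166) and was not called after median scaling (1.02). Sf3b4, at 72.5 to 162 FPKM, had no call in any comparison.

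The Lsm2 to Lsm8 ring binds the 3′ end of U6, and Lsm2 to Lsm7 also form, with Lsm1, the cytoplasmic ring that promotes decapping of mRNA with short tails. Its transcripts diverged as those of the Sm ring did. Lsm7 was at 398 and 346 FPKM at GV in WT, 283 and 365 in MI, and 772 and 565 in MII, and in Cnot6l-/- at 277 and 276 in GV, 529 and 461 in MI, and 358 and 405 in MII. Lsm3 was at 448 and 509 FPKM at GV in WT, 72.7 and 144 in MI, and 69.0 and 134 in MII, and in Cnot6l-/- at 563 and 649 in GV, 261 and 286 in MI, and 159.7 and 126 in MII. Lsm7 was thus highest in WT MII, and Lsm3 in the GV libraries of both genotypes.

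Lsm3 fell by 2.21 ± 0.34 from GV to MI in WT (adjusted p = 0.00143), under all 18 alternatives. Lsm7 rose from WT MI to MII by 1.04 ± 0.18 (adjusted p = 0.00237) and was lower in mutant MII by a log2 difference of -0.79 ± 0.18 (adjusted p = 0.00839), a call lost without Cnot6l-/- MII replicate 1 (adjusted p = 0.0643). Its MI to MII change differed between genotypes by -1.41 ± 0.26 (adjusted p = 0.00955), lost without Cnot6l-/- MI replicate 1 (adjusted p = 0.0556). Within the summed FPKM of the 6 Lsm genes, Lsm7 made up 20.2% and 17.2% in WT GV, 45.3% and 42.3% in WT MII, and 23.6% and 27.3% in mutant MII.

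Lsm4 rose in the mutant between GV and MI, from 184 and 195 FPKM to 699 and 575 (by 1.74 ± 0.26, adjusted p = 0.00152), under all 18 alternatives. Lsm6 fell from 43.7 and 41.6 FPKM in WT MI to 17.8 and 13.1 in MII (-1.42 ± 0.29, adjusted p = 0.00548) and was at 43.9 and 61.8 FPKM in mutant MII, higher by 1.70 ± 0.29 (adjusted p = 0.00157). Lsm2 fell from 409 and 253 FPKM in WT MI to 159 and 140.3 in MII (-1.10 ± 0.22, adjusted p = 0.00493). Lsm5 lay between 246 and 454 FPKM in WT and between 388 and 578 FPKM in the mutant. Its call at MII (0.68 ± 0.19, adjusted p = 0.0242) was lost after median scaling, where the difference was 0.08, and without WT MII replicate 2 (0.126), Cnot6l-/- MII replicate 1 (0.0566) or replicate 2 (0.14).

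Among the tri-snRNP and later factors, Prpf3, Prpf4 and Prpf31 belong to U4/U6, Prpf6 and Prpf8 to U5, and Prpf38a joins the complex before activation. Prpf3 was at 60.8 and 61.8 FPKM at GV in WT, 26.7 and 39.5 in MI, and 0.87 and 1.26 in MII. In Cnot6l-/- it was at 30.9 and 50.1 FPKM in GV, 48.2 and 59.9 in MI, and 9.63 and 22.1 in MII. Prpf38a was at 222 and 272 FPKM at GV in WT, 83.0 and 117 in MI, and 11.6 and 18.2 in MII, and in Cnot6l-/- at 261 and 194 in GV, 222 and 276 in MI, and 111 and 92.2 in MII. For both genes the WT MII libraries were the lowest of all 12.

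Prpf3 fell by 4.03 ± 0.46 from MI to MII in WT (adjusted p = 1.5e-04) and was higher in mutant MII by 2.93 ± 0.46 (adjusted p = 9.6e-04). In WT Prpf38a fell by 1.31 ± 0.29 from GV to MI (adjusted p = 0.00875) and then fell by 2.68 ± 0.29 from MI to MII (adjusted p = 1.0e-04), and was higher in mutant MII by 2.72 ± 0.29 (adjusted p = 7.1e-05), the last under all 18 alternatives. The first fall of Prpf38a was lost without WT GV replicate 2 (0.0729), without WT MI replicate 1 (0.0598) and after median scaling. Prpf6, which bridges the parts of the tri-snRNP, rose instead, from 64.7 and 86.1 FPKM in WT MI to 189 and 206 in MII (by 1.39 ± 0.27, adjusted p = 0.00476). The mutant libraries were at 158 and 131 in MI and 151 and 150.3 in MII. The difference between genotypes in the MI to MII change of Prpf6 was not called.

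Prpf31 fell from 57.1 and 59.5 FPKM in WT GV to 20.4 and 8.13 in MI (-2.09 ± 0.50, adjusted p = 0.013), a call lost without WT GV replicate 1 (0.0693) or 2 (0.075), without WT MI replicate 2 (0.0761) and after median scaling. Prpf8, the catalytic scaffold, lay between 6.00 and 27.6 FPKM in all 12 libraries with no call. Prpf4 was at 0 to 4.36 FPKM, Prpf18 at up to 50.7 FPKM and Prpf38b at 16.9 to 52.7 FPKM, with no call. Snrnp200, the U5 helicase outside the rule, lay between 1.78 and 31.1 FPKM with no call. Prpf4b was called in 1 comparison, higher in mutant MII (1.42 ± 0.48, adjusted p = 0.0487), and 10 of the 12 fits without 1 library did not call it. After median scaling the difference was 0.87 and was not called (adjusted p = 0.224).

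**Figure D3:**
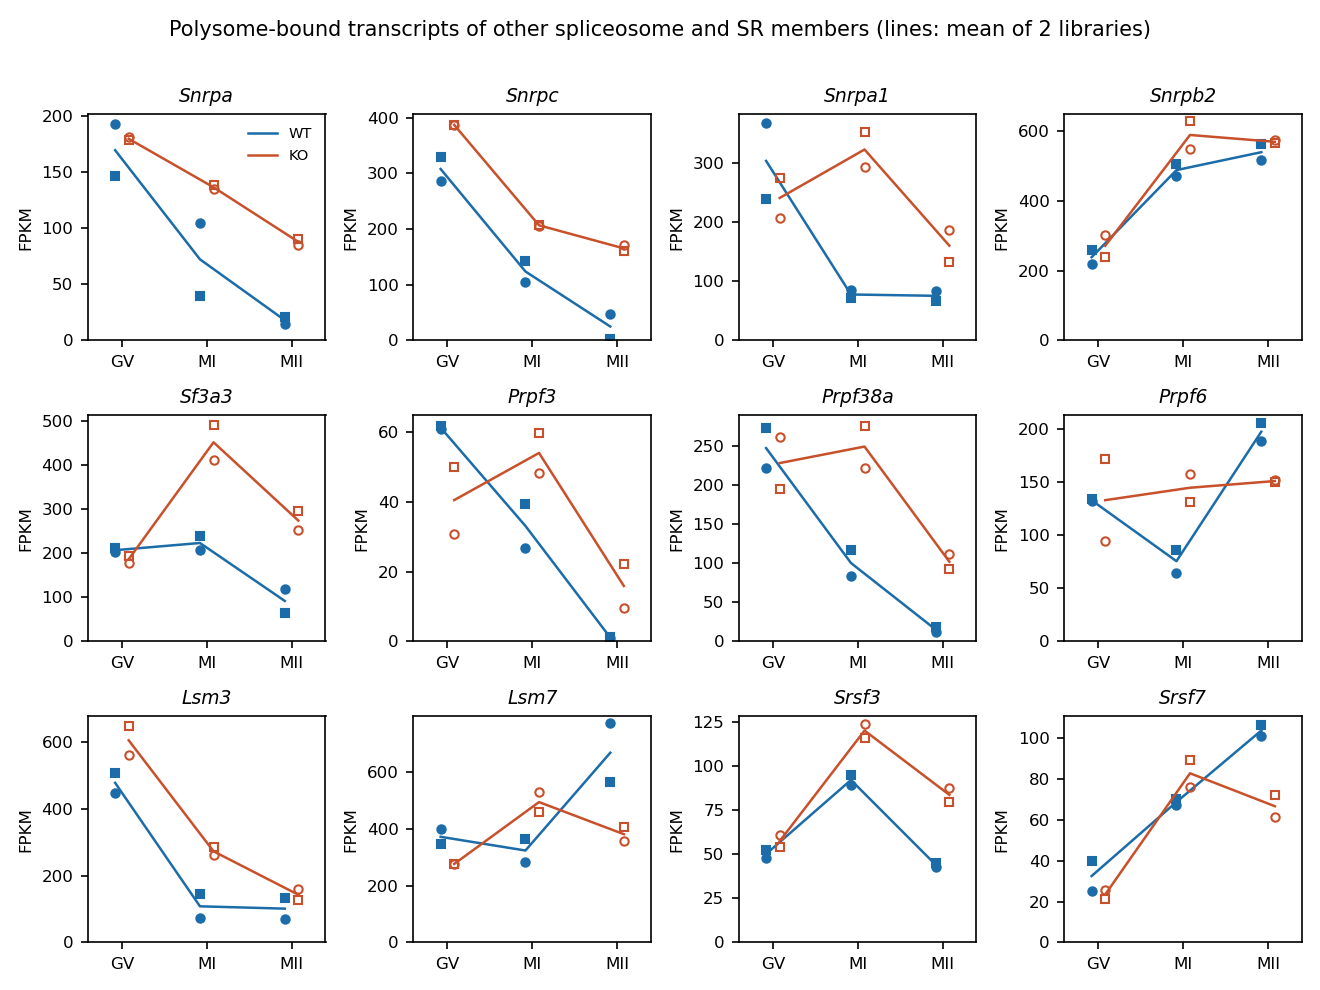
FPKM (vertical axis, linear) of 12 members outside the Sm core at GV, MI and MII; circles are replicate 1 and squares replicate 2, closed for WT and open for Cnot6l-/- (KO), and lines join the means of 2 libraries. Snrpa, Snrpc, Prpf3 and Prpf38a reach their lowest values in WT MII, Snrpb2 climbs from GV to MI in both genotypes, and Lsm7 and Prpf6 are highest in WT MII.

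The mean of the tested SR protein transcripts over the 12 libraries ran from 8.52 FPKM (Srsf1) to 129 FPKM (Srsf2), and the members differed in course. Srsf7 was at 25.3 and 39.7 FPKM at GV in WT, 67.2 and 70.2 in MI, and 100.9 and 106 in MII. In Cnot6l-/- it was at 25.4 and 21.4 FPKM in GV, 76.3 and 89.3 in MI, and 61.4 and 71.9 in MII. Srsf3, the smallest SR protein, peaked at MI in both genotypes, with 47.8 and 52.7 FPKM at GV in WT, 89.4 and 95.1 in MI, and 43.0 and 45.1 in MII, and 60.9 and 54.1, 124 and 116, and 87.6 and 80.0 FPKM in the mutant. Srsf4 was at 127 and 100.6 FPKM at GV in WT, 69.3 and 76.7 in MI, and 181 and 210.2 in MII, and in the mutant at 61.6 and 49.2 in GV, 108 and 133 in MI, and 126 and 82.9 in MII.

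Srsf7 rose from GV to MI in Cnot6l-/- by 1.78 ± 0.28 (adjusted p = 0.00229), under all 18 alternatives, and in WT by 1.09 ± 0.28 (adjusted p = 0.0193), where the call was lost without WT GV replicate 1 (0.132), WT MI replicate 1 (0.0571) or WT MI replicate 2 (0.0683). The difference between the 2 rises was not called (0.69 ± 0.40, adjusted p = 0.265). Srsf3 rose in WT from GV to MI by 0.86 ± 0.22 (adjusted p = 0.0179) and fell by 1.05 ± 0.22 from MI to MII (adjusted p = 0.0067). Its rise was lost without WT GV replicate 1 (0.0916), WT GV replicate 2 (0.0577) or WT MI replicate 2 (0.0632). Srsf4 rose from WT MI to MII by 1.41 ± 0.26 (adjusted p = 0.0035) and was lower in mutant MII by a log2 difference of -0.93 ± 0.26 (adjusted p = 0.0241), lost without WT MII replicate 2 (0.082) or Cnot6l-/- MII replicate 2 (0.177).

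Srsf5 was at 63.2 and 57.1 FPKM in WT MI and 229 and 219 FPKM in Cnot6l-/- MI, a difference of 1.88 ± 0.30 (adjusted p = 0.00193) that was 0.92 and not called after median scaling. Srsf1, the founding SR protein, was at 3.27 and 1.47 FPKM in WT MI and 17.4 and 12.8 FPKM in mutant MI, a difference of 2.29 ± 0.68 (adjusted p = 0.0315) lost after median scaling and in 4 of the 12 fits without 1 library. Srsf10 was at 39.1 to 48.5 FPKM in all WT libraries and rose in the mutant from 18.9 and 28.1 FPKM in GV to 77.4 and 62.2 in MI (by 1.55 ± 0.30, adjusted p = 0.00698), a call lost without Cnot6l-/- MI replicate 1 (0.083) and on the TPM scale (0.106). Srsf2, Srsf6, Srsf9 and Srsf11 had no call. Srsf2 varied within the mutant groups, with 296 and 124 FPKM in MI and 134 and 24.8 FPKM in MII.

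Over all 48 tested members, 7 rose and 7 fell between GV and MI in WT, or 14.6% in each direction, where 3.06% of all tested genes rose and 21.7% fell, with a median of -0.60 for the members and -0.87 for all tested genes. Both libraries of MI lay above both of GV for 9 members (background 9.38%) and below them for 25 (background 55.2%). After median scaling 12 members rose and 2 (4.17%) fell, against 6.99% and 7.62% of all genes, so that Snrpf, Snrpn, Sf3b1, Lsm2 and Lsm4 joined those called higher. The 5 calls made under all 18 alternatives were the rises of Snrpd3, Snrpg and Snrpb2 and the falls of Snrpa1 and Lsm3.

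Between MI and MII in WT, 7 members rose (14.6%, background 5.68%) and 12 fell (background 16.4%), with medians of -0.08 for the members and -0.27 for all tested genes. The libraries of MII lay above those of MI for 13 members (background 17.5%) and below them for 19 (background 30.8%). After median scaling 11 rose and 10 fell (background 8.97% and 14.9%). A fit of the 4 WT libraries of these stages alone called no member, so all these calls rest on the spread shared by the 6 groups; with all 12 libraries the unadjusted p was under 0.05 for 10 members that were higher and 15 that were lower.

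**Figure D4:**
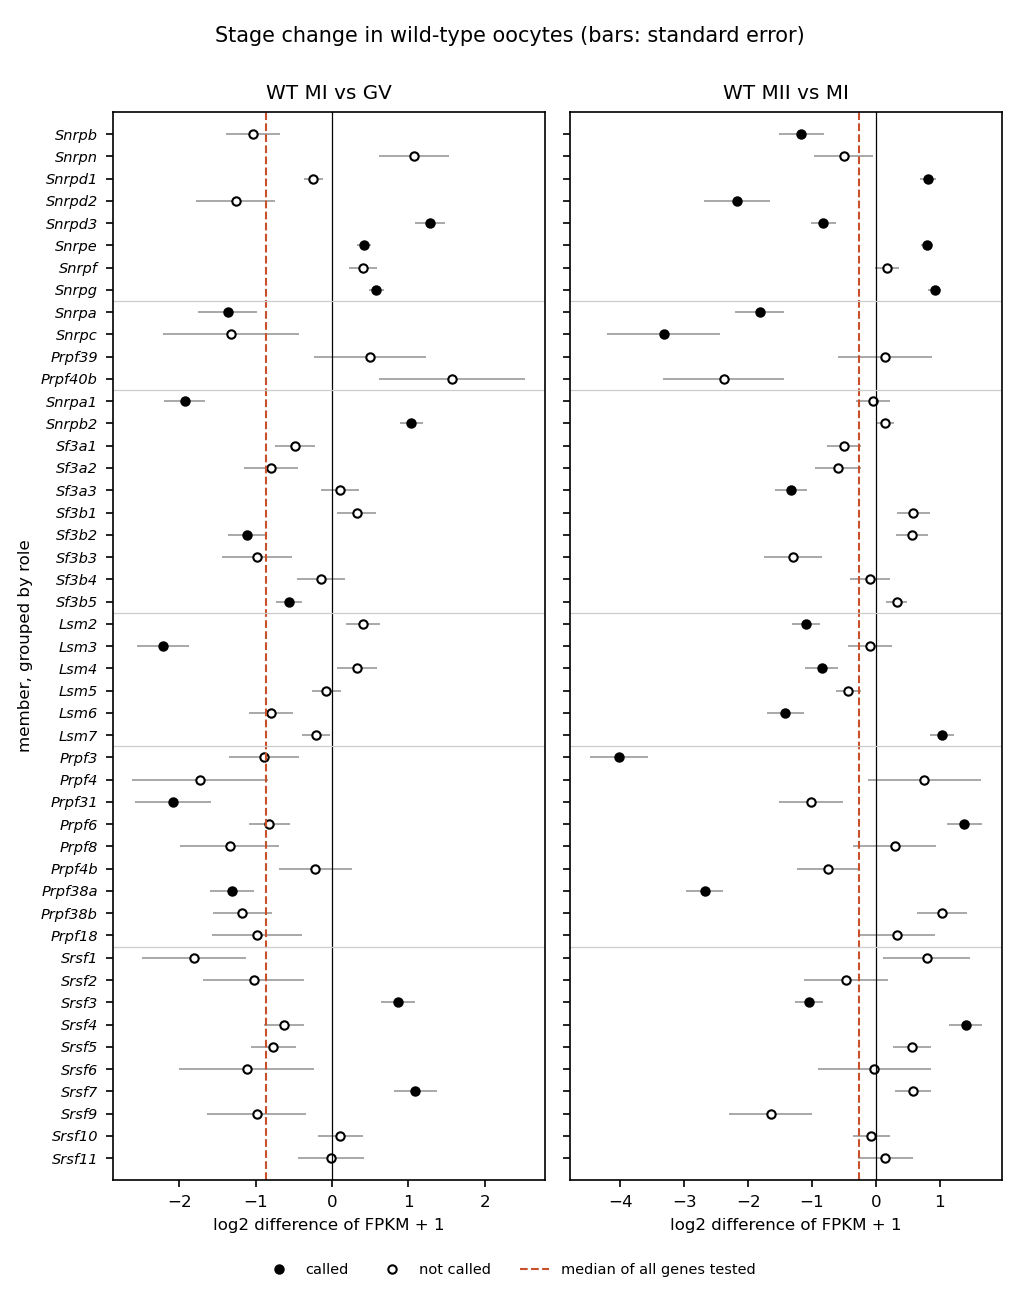
Log2 difference of FPKM + 1 between stages in WT (horizontal axes) for members grouped by role, with standard errors as bars; closed points are called at an adjusted p under 0.05 and the dashed line is the median of all tested genes (-0.87 and -0.27). Within the Sm core Snrpe, Snrpg and Snrpd1 lie to the right and Snrpb and Snrpd2 to the left of the line from MI to MII.

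At GV limma called 0 of 48 members higher and 0 lower in Cnot6l-/- than in WT (background 0.163% and 1.4%), and an unadjusted p under 0.05 was reached by 0 members in the higher and 6 in the lower direction. After median scaling it also called 0 and 0 (background 0.197% and 0.96%), and an unadjusted p under 0.05 was reached by 1 and 5. The mutant libraries lay above those of WT for 9 members (background 17.9%) and below them for 13 (background 24.2%). Snrpb, at 126 and 179 FPKM in the mutant and 297 and 296 in WT (-0.97 ± 0.36, adjusted p = 0.325), and Lsm4, at 184 and 195 against 409.8 and 371 FPKM (-1.04 ± 0.26, adjusted p = 0.106), were among these 13.

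At MI 15 members were called higher in the mutant and 0 lower, or 31.2% against 27.9% of all tested genes (0.463% lower), a share near the background. The median was 0.71 for the members and 1.03 for all tested genes. After median scaling 0 members were higher and 4 lower (8.33%, background 2.16% and 2.46%): Snrpd3, Snrpe, Snrpg and Snrpb2. As deposited, the mutant libraries lay above those of WT for 38 members (background 69.5%) and below them for 1 (background 3.13%). At an unadjusted p under 0.05, 21 members were higher and 0 lower as deposited, and 2 were higher and 11 lower after median scaling. None of the 15 calls was made under all 18 alternatives.

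At MII 15 members were called higher in the mutant (31.2%, background 25.4%) and 6 lower (12.5%, background 3.2%). The median was 0.50 for the members and 0.81 for all tested genes. The mutant libraries lay above those of WT for 22 members (background 48.9%) and below them for 10 (background 10.6%). The 6 lower members were Snrpd1, Snrpe, Snrpg, Sf3b5, Lsm7 and Srsf4. Sf3b5 (-0.57 ± 0.17, adjusted p = 0.028) was lost without WT MII replicate 2 (0.153) or Cnot6l-/- MII replicate 1 (0.186). After median scaling 7 members were higher and 11 lower (background 16.1% and 8.31%), and Snrpd2, Snrpa, Snrpc, Sf3a3, Lsm6, Prpf3 and Prpf38a were the 7.

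**Figure D5:**
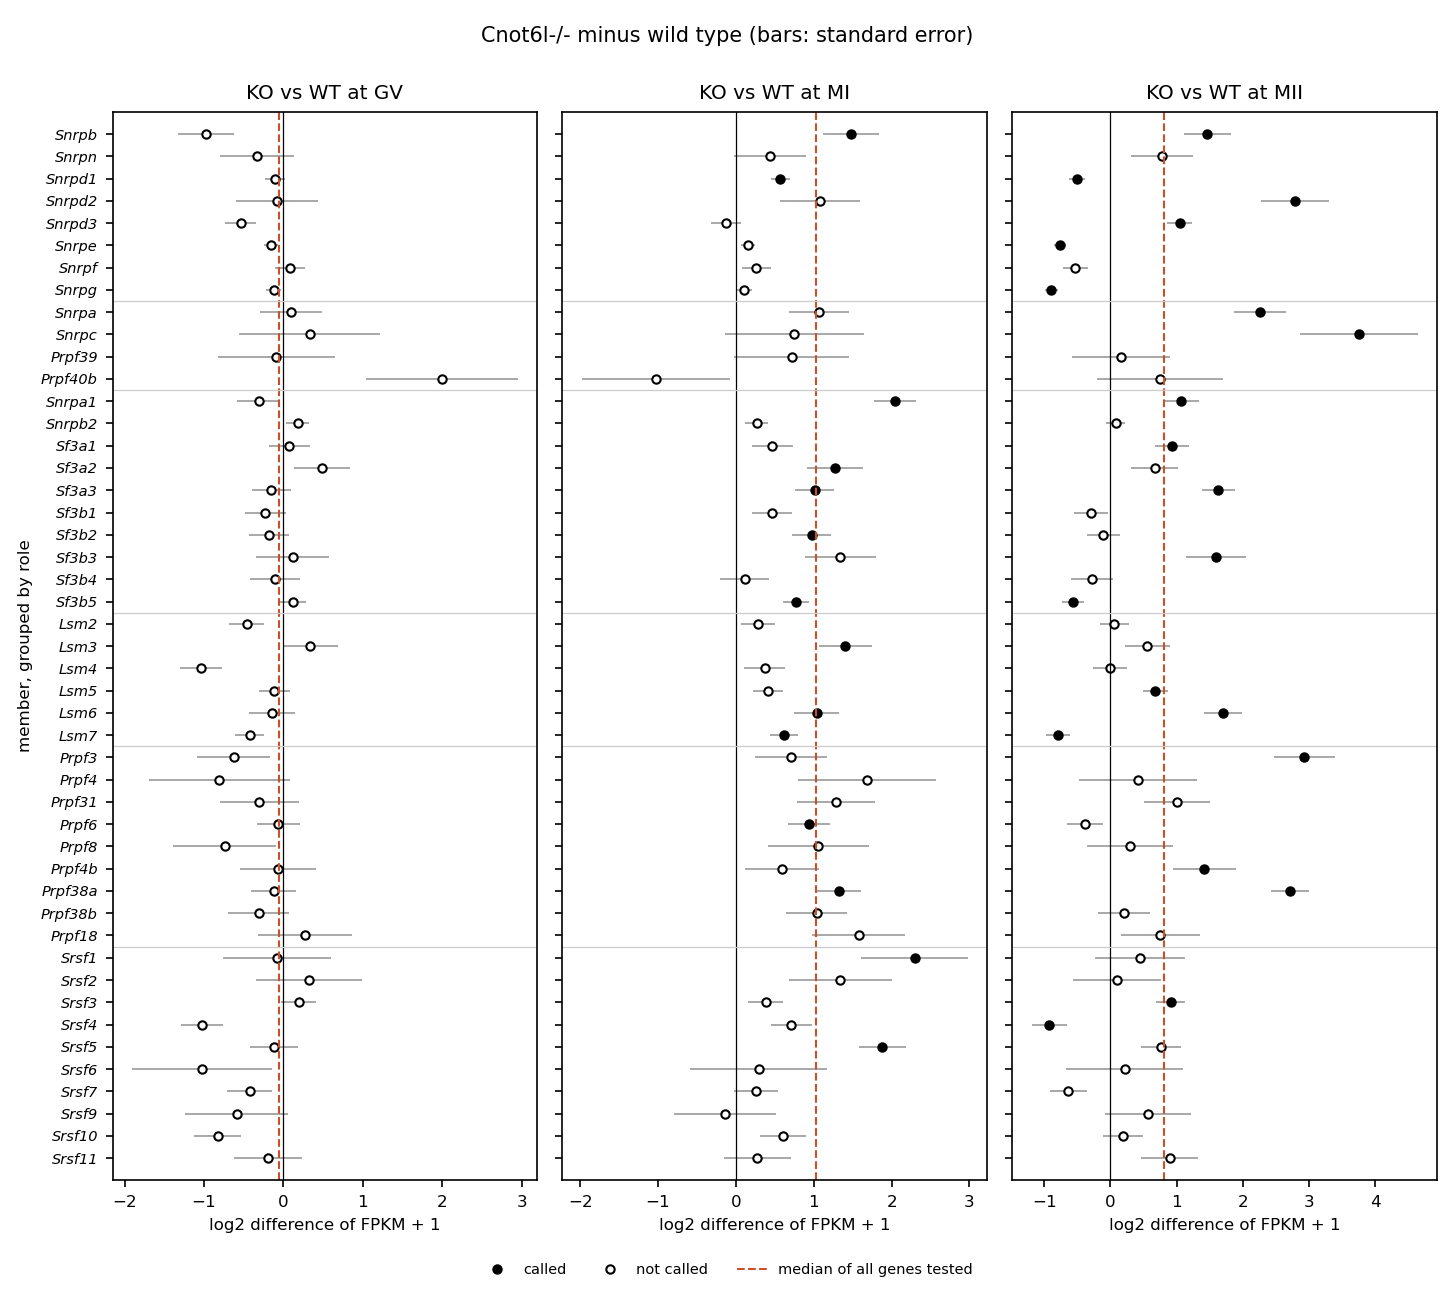
Log2 difference of FPKM + 1, Cnot6l-/- (KO) minus WT, at GV, MI and MII (horizontal axes, each with its own range) for members grouped by role, with standard errors as bars; closed points are called at an adjusted p under 0.05 and the dashed line is the median of all tested genes (-0.06, 1.03 and 0.81). At GV no point is closed, and at MII 6 closed points lie below 0 and 15 above.

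Within the mutant, 17 members rose from GV to MI (35.4%, background 8.89%) and 0 fell (background 1.35%), with medians of 0.45 for the members and 0.26 for all tested genes. By limma at an unadjusted p under 0.05, 20 members were higher and 1 lower. The MI libraries lay above those of GV for 26 members (background 37.3%) and below them for 5 (background 18.7%). After median scaling 7 rose and 1 fell (background 4.19% and 2.32%). Snrpd3 rose from 210.2 and 334 FPKM to 859 and 862 (by 1.69 ± 0.19, adjusted p = 2.4e-04), and with Lsm4 and Srsf7 it was called under all 18 alternatives. Snrpe and Snrpg rose by 0.73 ± 0.09 and 0.81 ± 0.10 (adjusted p = 3.9e-04 for each), calls lost on the TPM scale (0.562 and 0.384).

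From MI to MII in the mutant 0 members rose (background 0.163%) and 6 fell (12.5%, background 7.18%). By limma at an unadjusted p under 0.05, 0 were higher and 16 lower. The MII libraries lay above those of MI for 2 members (background 5.67%) and below them for 33 (background 54.9%). The 6 were Snrpa1, Sf3b5, Lsm2, Lsm4, Prpf3 and Prpf38a. On the TPM scale and after median scaling 0 members fell, and after median scaling 3 rose, Snrpd3, Snrpe and Snrpg (background 0.84% higher and 0.677% lower).

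The tests of the genotypes' different courses called 9 members for the change from GV to MI, all higher in the mutant (18.8%, background 14.4%; 0 lower, background 0.266%), with 19 higher and 1 lower by limma at an unadjusted p under 0.05. They were Snrpb, Snrpd1, Snrpa1, Lsm4, Lsm7, Prpf38a, Srsf4, Srsf5 and Srsf10. None of the 9 was called after median scaling or on the TPM scale. Median scaling called 0 higher and 3 lower, Snrpe, Snrpg and Snrpb2 (background 0.643% and 0.926%), with 2 higher and 8 lower by limma at an unadjusted p under 0.05. For the change from MI to MII, 6 members were lower (12.5%, background 3.71%) and Snrpd3 alone was higher (2.08%, background 2.81%). After median scaling 5 were lower and 3 higher (background 1.73% and 4.51%). The 6 were Snrpd1, Snrpe, Snrpg, Sf3b5, Lsm7 and Srsf4, which are also the 6 that were lower in the mutant at MII, a comparison that shares its MII libraries with this one.

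Splicing genes outside the rule were read from the same fit, where 3.06% of all tested genes rose and 21.7% fell from GV to MI in WT, or 6.99% and 7.62% after median scaling. Of the 6 genes of the list around U2AF and the branch point, 1 rose and 4 fell from GV to MI in WT, and 1 and 2 after median scaling. Rbm17, which contacts U2AF and SF3B1, was at 1050.8 and 862 FPKM at GV in WT, 202 and 214 in MI, and 122 and 128 in MII, and at 997 and 1082, 607 and 617, and 397 and 418 FPKM in the mutant. It fell by 2.19 ± 0.13 from GV to MI in WT (adjusted p = 2.2e-06) and was higher in mutant MII by 1.70 ± 0.13 (adjusted p = 6.2e-06). At GV 2 genes of these lists were called lower in the mutant, Puf60 and Ddx41. Puf60, a partner of U2AF, was at 400.2 and 360.1 FPKM in the mutant and 797 and 838 FPKM in WT (-1.10 ± 0.12, adjusted p = 0.00107). The helicase Ddx41 was at 119 and 76.9 against 282 and 212 FPKM (-1.34 ± 0.27, adjusted p = 0.0391), and was not called after median scaling (0.0722).

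The exon junction complex, laid on mRNA by splicing, held 5 genes, of which 1 was called higher and 1 lower at each WT step (background 3.06% and 21.7%, then 5.68% and 16.4%). After median scaling 2 were higher and 0 lower by limma from GV to MI, and 2 and 1 from MI to MII (background 6.99% and 7.62%, then 8.97% and 14.9%). Magoh was at 425 and 399.9 FPKM at GV in WT and 2294 and 2277 in MI, a rise of 2.47 ± 0.09 (adjusted p = 9.5e-08) that was also present in the mutant (2.15 ± 0.09, adjusted p = 7.8e-08). Its close relative Magohb, which a count could split with Magoh, was at 193 and 139 FPKM in WT MII and 66.7 and 66.4 FPKM in mutant MII (-1.29 ± 0.27, adjusted p = 0.00561). Rbm8a, the partner of MAGOH, was at 7.9 and 11.5 FPKM in WT MII and 60.9 and 51.7 FPKM in mutant MII (2.44 ± 0.28, adjusted p = 1.1e-04).

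In the snRNP assembly list, 10 of 12 genes were tested, and 1 rose and 2 fell from GV to MI in WT, also after median scaling (background 3.06% and 21.7% as deposited, 6.99% and 7.62% scaled). Gemin7, of the SMN complex that loads Sm proteins onto their RNA, fell from 480.4 and 454 FPKM to 107 and 59.8 (-2.53 ± 0.27, adjusted p = 1.4e-04). Snupn, which returns assembled snRNPs to the nucleus, was at 256 and 260.3 FPKM at GV in WT and 8.1 and 12.4 FPKM in WT MII, against 61.2 and 72.3 FPKM in mutant MII (2.61 ± 0.31, adjusted p = 1.5e-04). At MII this list had 5 genes higher and 1 lower in the mutant (background 25.4% and 3.2%), and 3 and 1 after median scaling (background 16.1% and 8.31%).

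The Prp19 complex and related factors had 2 higher and 6 lower of 15 from GV to MI in WT (background 3.06% and 21.7%), and 2 and 2 after median scaling (background 6.99% and 7.62%). Ctnnbl1 was among the 6 (309 and 278 to 49.0 and 37.0 FPKM, log2 difference -2.75 ± 0.27, adjusted p = 9.0e-05). The other counts from GV to MI in WT were 0 higher and 3 lower of 9 splicing helicases, 1 and 2 of 9 tri-snRNP and step factors, 0 and 2 of 13 SR-related proteins and kinases, 1 and 2 of 20 hnRNP proteins, and 0 and 2 of 8 Sm-like proteins, beside the same background of 3.06% and 21.7%. After median scaling these counts were 0 and 1, 1 and 0, 1 and 1, 4 and 1, and 0 and 1 in that order (background 6.99% and 7.62%). Srpk1, a kinase of SR proteins, fell from 271 and 253 to 103 and 81.7 FPKM (-1.501 ± 0.216, adjusted p = 9.5e-04). Among Sm-like proteins, Lsm14b was at 99.6 and 116 FPKM in WT MII and 26.8 and 44.0 FPKM in mutant MII (-1.62 ± 0.33, adjusted p = 0.00436). Txnl4a, of U5, was at 3.0 and 3.1 FPKM in WT MII and 25.9 and 41.9 FPKM in mutant MII (3.08 ± 0.47, adjusted p = 8.6e-04).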

How the data were processed

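Polysome-bound RNA was sequenced in 12 libraries, 2 for each of 6 groups of mouse oocytes. The authors deposited FPKM values of 23235 genes, as a joint table and as 12 tables of single libraries with the same values. The tools listed in the submitters' processing notes are Cufflinks 2.2.1, TopHat2 2.0.11, CASAVA 1.8 and Bowtie2 2.1.0, with the build mm9 and no role for each. Read counts are not given, so the depth is unknown and no counting interval can be computed.

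Log2(FPKM + 1) of the 11667 genes with a mean of at least 1 FPKM was fitted with limma 3.58.1 in R 4.3.3, as 6 group means with an abundance trend, 6 residual and 4.27 prior degrees of freedom, 2-sided, with Benjamini-Hochberg adjustment. The pseudocount of 1 understates changes of low genes. The script was tested on simulated data. Interactions are differences of stage changes between genotypes. For each comparison 18 alternatives were run, namely no filter, a pseudocount of 0.1, TPM (FPKM rescaled to one total), median scaling, a fit of the compared groups alone, a replicate block, and leaving out each library. Median scaling used the 5734 genes with a mean of at least 10 FPKM that were above 0 in every library.

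The members and lists were chosen with earlier results of these data known. Members are named by role and, per comparison, among the 8 largest called changes in each direction whose libraries did not overlap. The text gives a part of the genes that this allows. Of other lists, up to 2 called genes per comparison were eligible. The values of 1 member, which is counted in the totals, and 1 sequence are not reported here.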

Additional observations from a re-analysis of the deposited data

Results flagged for a closer look

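For 13 members the test of the difference between genotypes (limma interaction term, adjusted p under 0.05) showed a stage change that differed between WT and Cnot6l-/- oocytes. From GV to MI the log2 change was larger in the mutant by 2.46 for Snrpb, 0.68 for Snrpd1, 2.36 for Snrpa1, 1.41 for Lsm4, 1.04 for Lsm7, 1.44 for Prpf38a, 1.74 for Srsf4, 2.00 for Srsf5 and 1.44 for Srsf10. The median over all tested genes was 1.13 in this contrast, and none of these 9 calls was made after median scaling or on the TPM scale.

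From MI to MII the difference was -1.07 for Snrpd1, -0.92 for Snrpe, -0.996 for Snrpg, -1.34 for Sf3b5, -1.41 for Lsm7 and -1.63 for Srsf4, and 1.17 for Snrpd3, where the median over all tested genes was -0.25. After median scaling these values were -0.71, -0.56, -0.64, -0.97, -1.05, -1.28 and 1.53 in that order, and Srsf4 was then not called. Which cause lies behind these differences was not tested.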

How the results depend on the processing

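Counts of members called moved with the scale and with the groups fitted. On the TPM scale the counts, higher and lower, were 2 and 3 for Cnot6l-/- against WT at MI, 8 higher at MII, 11 higher for WT MII against MI, 3 and 1 for mutant MI against GV, 0 lower for mutant MII against MI, 0 and 1 for the interaction from GV to MI, and 3 higher for that from MI to MII. After median scaling they were 0 and 4 at MI, 7 and 11 at MII, 12 and 2 for WT MI against GV, 11 higher for WT MII against MI, 7 and 1 for mutant MI against GV, 3 and 0 for mutant MII against MI, 0 and 3 for the interaction from GV to MI and 3 higher from MI to MII. In fits of the compared groups alone they were 4 and 3 at MII, 0 and 0 for WT MII against MI, 2 lower for mutant MI against GV, and 14 higher for the interaction from GV to MI. For the interaction from MI to MII, a pseudocount of 0.1 gave 2 higher and no filter gave 0.

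The labels do not say that replicate numbers mark pairs. Deviations of same-numbered libraries correlated between groups at -0.0292 to 0.0547, which cannot show whether those libraries were collected together. With the replicate block, 1 member was lower at GV, 1 was lower in mutant MI against GV, and 2 were higher for the interaction from MI to MII. The other counts stayed within 1.5 times.

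Without 1 library at a time, counts higher and lower ranged over 0 and 0 to 1 at GV, 4 to 22 and 0 at MI, 8 to 16 and 3 to 6 at MII, 3 to 7 and 2 to 15 for WT MI against GV, 6 to 9 and 8 to 13 for WT MII against MI, 7 to 19 and 0 to 2 for mutant MI against GV, 0 and 0 to 11 for mutant MII against MI, 1 to 13 and 0 to 1 for the interaction from GV to MI, and 0 to 3 and 3 to 8 from MI to MII.

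Directions turned after median scaling at MI for Nhp2l1 (-0.133), Magohb (-0.089), Prpf6 (-0.020), Snrpd1 (-0.394, TPM -0.076) and Lsm7 (-0.347, TPM -0.030), at MII for Hnrnpc (-0.202, TPM -0.048), for Sf3b5 in WT MI against GV (0.109), and in the interaction from GV to MI for Lsm7 (-0.018) and Snrpd1 (-0.380, TPM -0.211). The cause was not tested. With 2 libraries a group and the depth unknown, no limit of detection can be given for low members.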
